A study of Mus musculus with 8 samples.

Results

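The dual-specificity MAPK phosphatases were followed through the first 120 min of macrophage activation. The 10 genes Dusp1, Dusp2, Dusp4, Dusp5, Dusp6, Dusp7, Dusp8, Dusp10, Dusp14 and Dusp16 were taken from the count table by gene symbol, out of 23143 genes in the table. The rule itself used no measured value, but the list of symbols was drawn up with earlier results of these data known. RAW264.7 cells, a mouse macrophage line, were either left unstimulated (0 min) or treated with lipopolysaccharide (LPS, from E. coli, at 100 ng/ml) for 15, 30, 45, 60, 75, 90 or 120 min. Each time point was represented by 1 RNA-seq library (n = 1), 8 libraries in all, of ribosome-depleted RNA that the labels give both as total RNA and as the cytoplasmic fraction. All libraries came from this 1 transformed cell line in culture, and nothing in the labels says whether the time points were separate cultures.

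Mitogen-activated protein kinases (MAPKs) of the ERK, JNK and p38 families are switched on by phosphorylation of a threonine and a tyrosine in their activation loop, and dual-specificity phosphatases remove both phosphates. In macrophages, recognition of LPS by the receptor Tlr4 activates all of these MAPK families, and these kinases drive cytokine production. Several of the phosphatases are themselves encoded by MAPK-responsive genes and act as feedback inhibitors. They differ in where they act and on which kinase: Dusp1, Dusp2, Dusp4 and Dusp5 are nuclear and inducible, Dusp6 and Dusp7 are cytoplasmic and act mainly on ERK, Dusp8, Dusp10 and Dusp16 act mainly on JNK and p38, and Dusp14 is a small enzyme without the kinase-binding domain of the others.

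The libraries held between 100250892 and 159077286 counts. Ribosomal precursor RNA (Rn45s) took 8.18 to 9.11% of counts at 0, 30, 60 and 120 min and 13.0 to 20.5% at 15, 45, 75 and 90 min. Its part in the values below was not tested, beyond a scaling without Rn45s and patterns from the 0, 30, 60 and 120 min libraries alone. Counts were divided by median-of-ratios size factors to give normalized counts, and scaling by total counts instead shifted every log2 ratio to 0 min, by up to -0.33 at 75 min. Of 8 macrophage markers, 7 were matched by symbol and all were expressed in every library, for example Csf1r with a normalized count of 121904 and Cd68 with 33159 at 0 min. Among the markers of other cells, Ncr1, Epcam, Col1a1 and Mcpt4 were at 0 in all 8 libraries, while Siglech had a normalized count of 200.2 at 0 min and 158 at 120 min. In bulk RNA a change in the RNA per cell and a change in the number of cells that express a gene cannot be told apart.

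A gene was called higher or lower when its log2 ratio was beyond 0.5 and an exact negative binomial test of the 2 libraries gave an unadjusted p of at most 0.05. Because each time point had 1 library, the spread in that test was taken from all 8 libraries, treating them like replicates, so a call compares libraries and not conditions. All ratios to 0 min share the same 0 min library, and the intervals given (95%) cover counting error only. Tests covered the 12166 genes whose normalized counts averaged 10 or more, all 10 phosphatases among them. Where 8 values of a gene are listed without times, they stand in the order of the libraries from 0 to 120 min. Gene positions are those of RefSeq on GRCm38.p6, the build of the files.

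Sequences around the genes are given first for Dusp1, Dusp8 and Dusp5, since these 3 genes held a full match to the cAMP response element (CRE, searched as TGACGTCA, a palindrome) or to the CArG box bound by serum response factor. RefSeq windows (GRCm38.p6) from 250 bases before to 50 bases after a transcript start were found for 9 of the 10 genes, all except Dusp4. The stretches below lie upstream of the start and are written 5′ to 3′ on the strand of the gene, with the matched motif in capitals. The Dusp1 stretch lies at chr17:26508596-26508627 on the minus strand, the Dusp8 stretch at chr7:142095328-142095403 on the minus strand, and the Dusp5 stretch at chr19:53529051-53529094 on the plus strand.
Dusp1: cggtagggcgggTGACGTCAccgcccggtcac
Dusp8: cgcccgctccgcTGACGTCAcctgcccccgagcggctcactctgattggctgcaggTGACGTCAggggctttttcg
Dusp5: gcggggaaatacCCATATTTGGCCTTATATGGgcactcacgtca

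The CRE of Dusp1 began at position -143 from the transcript start, and those of Dusp8 began at -107 and -63. The Dusp8 window belonged to a start inside the annotated gene, not to its outermost end. A CRE was found in 1.79% of the 32851 RefSeq windows, and at least 2 were found in 0.0396% of them. In Dusp5, CArG boxes began at -82 and -72, directly next to each other, whereas 1.63% of windows held at least 1 and 0.0183% held at least 2. The core TGACG, searched on both strands and contained in every CRE, occurred in 5 of the 9 windows and in 20.8% of all windows. No window of the 9 held TGACTCA (the AP-1 site, both strands), TATAAA or a match to the NF-kB consensus. These matches describe the letters in the window and not occupancy by a factor.

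AU-rich elements, which mark many short-lived mRNAs, were counted in the 3′ untranslated region (UTR) of each gene. The longest UTR among its GENCODE transcripts (GRCm38) matched by RefSeq accession was used. The pentamer ATTTA was present in 8 of the 10 phosphatase mRNAs and in 67.3% of the 11272 tested genes with such a region, whose median density was 1.25 pentamers per kilobase. Dusp2 had 4 pentamers in 581 bases and Dusp1 had 4 in 690 bases, densities of 6.88 and 5.80 per kilobase that lay above those of 97.1% and 95.5% of tested genes. Dusp8 had 5 pentamers in 2370 bases (2.11 per kilobase), Dusp10 had 3 in 1113 bases (2.7) and Dusp16 had 3 in 2416 bases (1.24). Dusp4 had 2 (1.8 per kilobase), and Dusp5 and Dusp6 had 1 each (0.90 and 0.84). Dusp7 and Dusp14 had none. The longer element TTATTTATT was found in 7.42% of tested genes and, among the phosphatases, only in Dusp1 (2 copies) and Dusp8 (1 copy). These were also the only genes of the 9 with a CRE. The first copy of each is shown in capitals in its 29-base surroundings, at chr17:26506159-26506187 for Dusp1 and chr7:142081715-142081743 for Dusp8, both on the minus strand and in the 3′ UTR.
Dusp1: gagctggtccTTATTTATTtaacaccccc
Dusp8: tttcgattttTTATTTATTtaagctagtg

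The phosphatase mRNAs moved in both directions and at different times. Dusp1 and Dusp2 were highest at 45 min and then dropped, but both were still called higher at 120 min. For Dusp2 the rise from 30 to 45 min was not called. Dusp4, Dusp5, Dusp8 and Dusp16 were also called higher at 120 min, Dusp8 and Dusp16 after a decline. Dusp10 rose and then fell to its first value, and Dusp6 and Dusp7 fell. The number of genes called higher than at 0 min was 2 of 10 at 15 min, when 0.37% of all tested genes were called higher, and 5 at 30 min (all genes 1.42%). It was 7 at 45 min (all genes 4.63%), 60 min (4.23%) and 75 min (5.86%), and 6 at 90 min (7.05%) and 120 min (9.41%). The number called lower was 0 of 10 at 15 min (0.181% of all tested genes) and 30 min (0.23%), and 1 at 45 min (1.85%). It was 2 at 60 min (3%), 75 min (4.32%) and 90 min (5.52%), and 3 at 120 min (8.57%). The median log2 ratio of the 10 genes was 0.69 at 30 min, 1.62 at 45 min and 3.14 at 120 min, beside medians of 0.01 at 30 min and -0.01 at 120 min over all tested genes. The calls at 15 min, those of Dusp1 and Dusp2, were lost when p-values were adjusted over all tested genes.

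**Figure D1:**
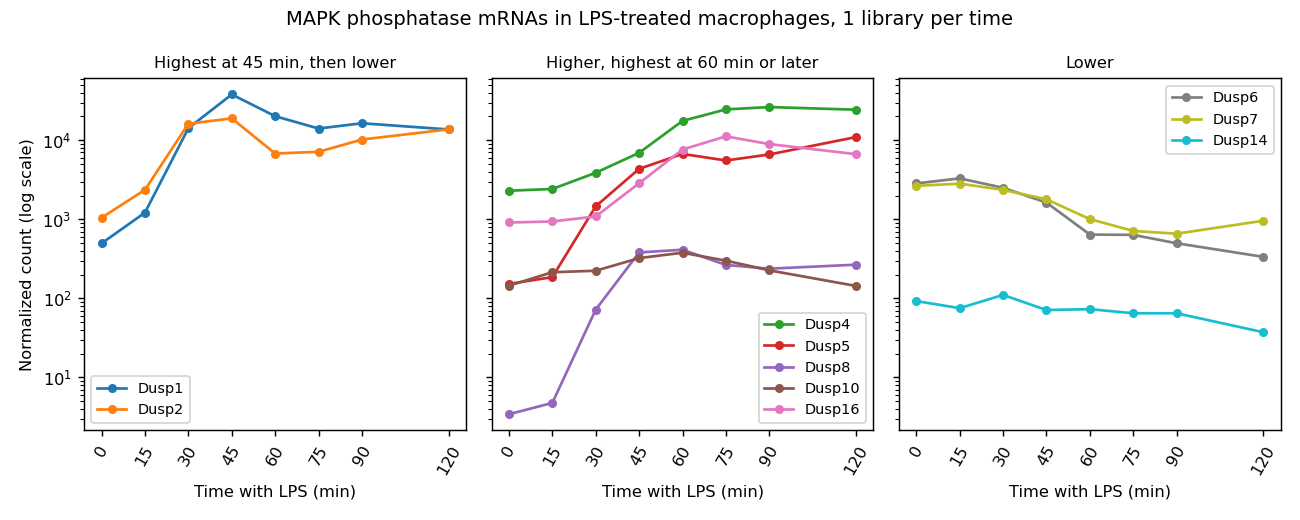
Normalized count (log axis) of each phosphatase mRNA against minutes with LPS, 1 point per library, in 3 panels by time course; no error bars are drawn because each time has 1 library. Dusp1 and Dusp2 reach their highest value at 45 min, the genes of the middle panel at 60 min or later, and those of the right panel are lowest at 90 or 120 min.

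Dusp1 (chr17:26505591-26508472), which encodes a nuclear phosphatase with a preference for p38 and JNK, had normalized counts of 496.2, 1215, 14206, 37988, 20152, 14071, 16397 and 13689. It was already higher in the 15 min library, was highest at 45 min, and then settled well above its starting level. The ratio to 0 min was 2.45 at 15 min (2.22 to 2.71), 76.6 at 45 min (70.5 to 83.3) and 27.6 at 120 min. From 45 to 60 min the level fell to 0.531 of its value, and both that step and the difference between 45 and 120 min (0.360) were called, whereas the differences among 75, 90 and 120 min were not.

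Dusp2 (chr2:127336159-127338377), a nuclear phosphatase of immune cells, had normalized counts of 1047, 2362, 16147, 18921, 6792, 7138, 10210 and 13740. The course had 2 waves, with a trough at 60 and 75 min. Levels at 45 min were 18.1-fold those at 0 min (17.1 to 19.2), fell to 0.359 of that by 60 min (0.349 to 0.369) and then rose 2.02-fold from 60 to 120 min (1.97 to 2.08), each step being called. The second rise was not called with adjusted p-values. At 120 min Dusp2 stood at 72.6% of its highest value, while Dusp1 stood at 36.0% of its own.

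These were the genes with pattern g3 of the study's grouping, in which a gene has a maximum before 60 min followed by a decline. This pattern was held by 1.07% of all tested genes and by 2 of the 10 phosphatases. Without the 45 min library Dusp1 had its maximum at 60 min and moved to pattern g1, leaving 1 phosphatase with g3. The 45 min library was also among those with the larger share of Rn45s (16.6%).

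Dusp4 (chr8:34807610-34819894), a nuclear phosphatase for ERK and JNK, had normalized counts of 2299, 2418, 3876, 6938, 17560, 24546, 26287 and 24338. It rose later than Dusp1 and Dusp2, with the largest called step between neighbouring times from 45 to 60 min (2.53-fold, 2.46 to 2.61). The ratio to 0 min was 1.69 at 30 min, 7.64 at 60 min and 11.4 at 90 min (11.0 to 11.9). The call at 30 min was lost with scaling by total counts, with adjusted p-values and with a log2 limit of 1, and levels at 75, 90 and 120 min did not differ by the call rule.

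Dusp5 (chr19:53529145-53541809), a nuclear phosphatase specific for ERK, started low, with normalized counts of 152.3, 185.6, 1460, 4348, 6714, 5545, 6608 and 10979. It was unlike the other nuclear members in that its last library was its highest. The step from 15 to 30 min was 7.87-fold (6.78 to 9.17), and the ratio to 0 min reached 28.6 at 45 min, 44.1 at 60 min and 72.1 at 120 min (62.2 to 84.1). The further rise from 90 to 120 min was 1.66-fold (1.61 to 1.72) and was called.

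Dusp6 (chr10:99263231-99267489), a cytoplasmic ERK phosphatase, fell. Its normalized counts were 2842, 3294, 2504, 1626, 641.1, 635.1, 497.7 and 334.7. Every library from 30 min on was below the 0 min library, and the 15 min library was above it with a ratio of 1.16 that was not called. The ratio to 0 min was 0.572 at 45 min, 0.226 at 60 min and 0.118 at 120 min (0.106 to 0.131). The call at 45 min, the only lower call at that time, was lost with the dispersion trend of edgeR, with adjusted p-values and with a log2 limit of 1.

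Dusp7 (chr9:106368560-106375724), a close relative of Dusp6 that also acts on ERK in the cytoplasm, had normalized counts of 2647, 2826, 2355, 1790, 1005, 712.5, 657.7 and 959.6. It followed Dusp6 down to 75 min but was not lowest at the end. The ratio to 0 min was 0.676 at 45 min, which was not called, 0.380 at 60 min, 0.249 at 90 min (0.226 to 0.273) and 0.363 at 120 min. From 45 to 60 min Dusp6 fell to 0.394 of its level (0.360 to 0.431) and Dusp7 to 0.562 (0.520 to 0.607).

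Dusp8 (chr7:142079487-142095907), a phosphatase for JNK and p38, was close to undetected in unstimulated cells. Its raw counts were 4, 5, 88, 337, 463, 188, 187 and 329, equal to normalized counts of 3.42, 4.76, 72.1, 380.6, 412.3, 264.7, 237.4 and 266.6. All libraries from 30 min on lay far above the first pair. The ratio to 0 min of 120.5 at 60 min was the largest of the 10 genes, but with 4 counts in the denominator its interval ran from 46.7 to 444. The interval of Dusp1 at 45 min (70.5 to 83.3) lies inside it, so no order between them can be read. The decline from 60 to 90 min was called. It was not called with the edgeR or DESeq2 dispersion trend, with adjusted p-values, with a log2 limit of 1 or without the 30, 45, 60, 75 or 90 min library.

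Dusp16 (chr6:134715468-134807063), a JNK phosphatase that shuttles between nucleus and cytoplasm, had normalized counts of 911.1, 938.3, 1087, 2858, 7629, 11203, 8938 and 6666. It was delayed in the way of Dusp4, with no call before 45 min and a maximum at 75 min of 12.3-fold (11.5 to 13.1). Unlike Dusp4 it then declined, to 0.595 of the 75 min value at 120 min (0.577 to 0.614), a called difference. That decline was not called with scaling by total counts, with adjusted p-values, with a log2 limit of 1 or without the 30 min library. Without the 75 min library, which had the largest share of Rn45s (20.5%), the maximum was at 90 min and no decline was called. None was called with the 0, 30, 60 and 120 min libraries alone either, the ratio of 120 to 60 min being 0.874.

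Dusp10 (chr1:184034381-184075636), which acts on p38 and JNK, gave a small transient rise. Normalized counts were 144.6, 214.1, 223.5, 323, 377.5, 299.9, 226 and 143.5. The ratio was 2.61 at 60 min (2.18 to 3.14) and 0.992 at 120 min, so that the last library was level with the first. The calls at 45 and 75 min were lost with the edgeR dispersion trend and with adjusted p-values, the call at 75 min also with scaling by total counts, and the call at 60 min was kept.

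Dusp14 (chr11:84048033-84069256) was low, with normalized counts of 92.4, 75.2, 110.5, 71.2, 73.0, 64.8, 64.8 and 37.3. Its only call was at 120 min, with a ratio of 0.404 (0.279 to 0.575). That call was lost with the edgeR dispersion trend and with adjusted p-values, and without the 120 min library Dusp14 had no maximum or minimum.

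**Figure D2:**
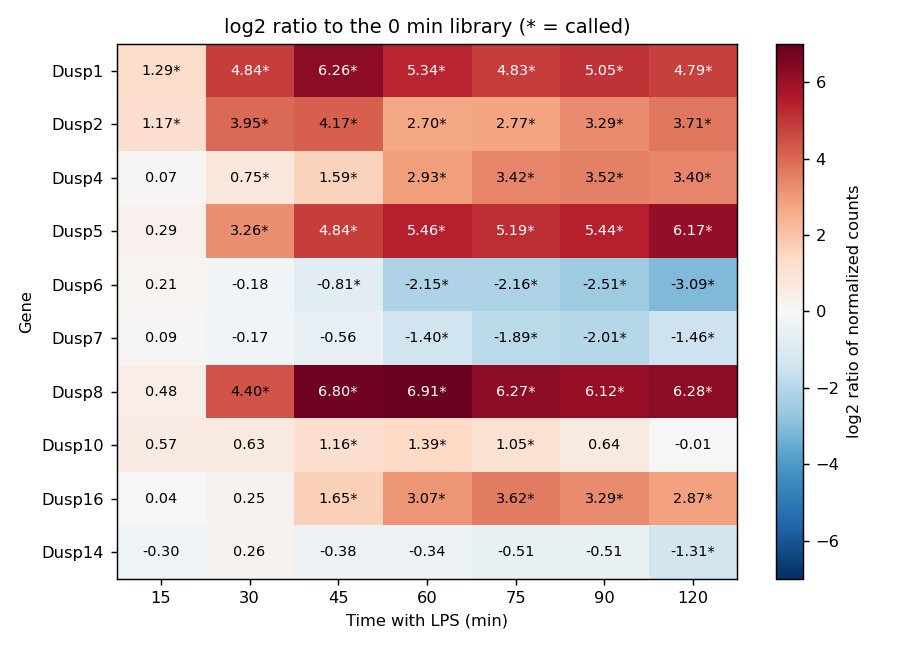
Colour map of the log2 ratio of normalized counts to the 0 min library for the 10 phosphatase genes (rows) at 7 times with LPS in minutes (columns), with each ratio printed and an asterisk where it was called. Dusp1, Dusp2, Dusp4, Dusp5, Dusp8 and Dusp16 are red from 45 min on, and Dusp6 and Dusp7 are blue from 60 min on.

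In the study's grouping, g1 holds genes that rise to a maximum at 60 min or later and g2 genes that fall to a minimum at 60 min or later. Pattern g1 was held by Dusp4, Dusp5, Dusp8, Dusp10 and Dusp16, 5 of 10 (9.64% of tested genes), and g2 by Dusp6, Dusp7 and Dusp14, 3 of 10 (9.99%). The nuclear inducible class thus held both g3 genes and 2 of the g1 genes, and all 3 phosphatases for JNK and p38 were in g1. For Dusp8 and Dusp10 this placement rested on a maximum at 60 min. Their steps from 45 to 60 min (ratios of 1.083 and 1.169) were not called, so a maximum later than 45 min cannot be read for them. Without the 60 min library 3 of 10 had pattern g1, since Dusp8 then had only an early maximum and Dusp10 changed to g3.

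Levels were compared between genes as reads per length of uniquely mappable transcript, scaled to the total counts of the library (rpkm), since reads matching several genes had been discarded. In unstimulated cells the order was Dusp6 (9.26 rpkm), Dusp4 (7.64), Dusp7 (7.48), Dusp2 (5.99), Dusp1 (2.29), Dusp16 (1.59), Dusp14 (0.593), Dusp5 (0.562), Dusp10 (0.472) and Dusp8 (0.00643). The counting intervals of Dusp4 and Dusp7 overlapped, as did those of Dusp14, Dusp5 and Dusp10, and these neighbours were not ordered. At 45 min Dusp1 led with 154 rpkm, followed by Dusp2 with 95.04 and Dusp4 with 20.3. At 120 min the order was Dusp4 (70.4 rpkm), Dusp2 (68.3), Dusp1 (54.9), Dusp5 (35.3), Dusp16 (10.1), Dusp7 (2.36), Dusp6 (0.948), Dusp8 (0.436), Dusp10 (0.407) and Dusp14 (0.208). Here the intervals of Dusp8 and Dusp10 overlapped.

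The makeup of the phosphatase mRNA pool changed with these courses. Over the 8 libraries the summed level of the 10 genes was 35.9, 47.1, 190.7, 298.9, 220.7, 185.3, 222.6 and 243.3 rpkm. Scaling to total counts, which include Rn45s, shifted log2 ratios to 0 min by -0.095 at 60 min and -0.33 at 75 min. The lower sum at 75 min than at 60 min therefore cannot be read as a fall. With size factors instead, Dusp6 had 8.33 rpkm at 0 min and Dusp4 72.8 at 120 min. Shares within a library do not depend on this scaling. The nuclear inducible genes made up 45.9% of the sum in the 0 min library, 94.8% of it at 45 min and 94.1% at 120 min. Since this class is defined in part by being inducible, a larger share after LPS is no independent result about it. The cytoplasmic ERK phosphatases Dusp6 and Dusp7 made up 46.7% at 0 min, 3.04% at 45 min and 1.36% at 120 min. Those for JNK and p38 made up 5.77% at 0 min, were highest at 75 min with 9.02% and made up 4.51% at 120 min, nearly all of it Dusp16.

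**Figure D3:**
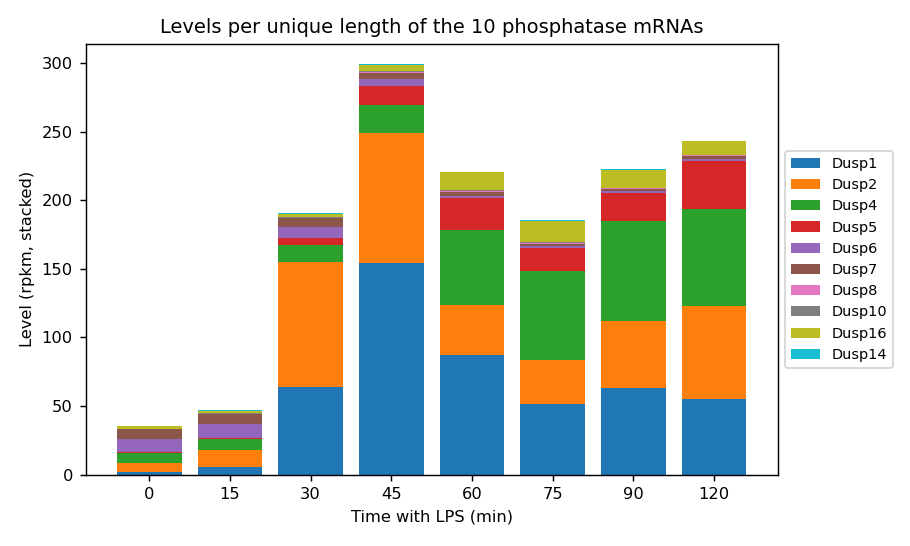
Stacked bars of the level (rpkm) of the 10 phosphatase mRNAs in each library, against minutes with LPS; bars start at 0 and no error bars are drawn. The bar grows from 35.9 rpkm at 0 min to 298.9 at 45 min, where Dusp1 (154 rpkm) is the largest part, and at 120 min Dusp4 (70.4 rpkm) is the largest part.

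Across the 8 libraries, the courses of some phosphatases ran close together on the log2 scale. As a description over n = 8 libraries, which share time and depth, Pearson's coefficient was 0.98 for Dusp4 with Dusp16 and 0.98 for Dusp5 with Dusp8. It was 0.96 for Dusp1 with Dusp8, 0.94 for Dusp1 with Dusp2 and 0.94 for Dusp6 with Dusp7. Spearman's coefficients of these pairs, in the same order, were 0.95, 0.79, 0.76, 0.64 and 0.93. For Dusp4 with Dusp7 Pearson's coefficient was -0.98. Among 10485 other genes whose normalized counts averaged 100 or more, those most like Dusp1 were Tmem88 (0.990), Fam83e (0.985) and the transcript Gt(ROSA)26Sor (0.984). Those most like Dusp2 were Nfkbia (0.986), which encodes an inhibitor of NF-kB, Ier3 (0.982) and Tnf (0.977), the tumor necrosis factor gene.

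For the later genes the most similar courses were those of Fbxo28, Spty2d1 and Bzw1 for Dusp4 (each at least 0.997), Lima1, Nsmce2 and Tra2b for Dusp16, and Marcksl1 and Nlrp3 for Dusp5, the last encoding an inflammasome sensor. Dusp8 was most like the transcription factor gene Maff (0.999), 3110001I22Rik and Rasgef1b, and Dusp10 was most like Ckap2 (0.990), Ripk1 and Dsn1. Dusp6 was most like Klf10 (0.998), Thumpd3 and D1Ertd622e, and Dusp7 most like Fam212a (0.997), Baat1 and Zbtb45. The number of genes with a coefficient of at least 0.95 was 509 for Dusp4, 409 for Dusp6, 270 for Dusp16, 234 for Dusp7, 122 for Dusp5, 71 for Dusp8, 23 for Dusp1, 11 for Dusp2 and 8 for Dusp10. Dusp4 and Dusp6 thus had many close matches, and Dusp1, Dusp2 and Dusp10 had few. Dusp10 had a mean normalized count of 244 and a 2.63-fold range, against 13533 and 11.4-fold for Dusp4. The part of counting noise and of the size of the change in these numbers was not tested. Ranking by Spearman's coefficient changed the 3 most similar genes for all 9 phosphatases ranked. Pearson's coefficient on normalized counts without logarithm kept none of the 3 for Dusp1, Dusp4, Dusp5 and Dusp16.

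The other genes of the pathway were examined as lists at 60 min. Over all tested genes 4.23% were called higher and 3% lower at that time, and 9.41% and 8.57% at 120 min, so that 0 or 1 call in a list of 7 to 10 genes is near the background and is not a result about the list. Of the other dual-specificity phosphatases, 10 of 15 were tested and 0 were called in either direction. The largest ratios among them were those of Styx (1.13, 1.08 to 1.18), an inactive relative, and Dusp27 (1.07, 0.748 to 1.54), and the smallest that of Dusp23 (0.710, 0.431 to 1.16). At 120 min 1 of the 10 was called lower, Dusp27. Of the other phosphatases acting on MAPKs, 0 of 7 tested were called at 60 min, where Ppm1a had a ratio of 1.22, the PP2A catalytic subunit gene Ppp2ca 1.21 and the tyrosine phosphatase gene Ptpn7 0.839. At 120 min 1 of the 7 was called higher, Ptpn5.

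The next lists held the kinases. None of the 8 MAP kinases tested was called at 60 min, with ratios of 1.21 for Mapk8, which encodes a JNK, and 0.781 for Mapk13. At 120 min 1 of the 8 was called lower, Mapk14, which encodes p38 alpha. None of the 7 MAP kinase kinases was called at 60 or at 120 min, and their largest and smallest ratios at 60 min were those of Map2k3 (1.29), Map2k4 (1.095) and Map2k1 (0.959). Among 10 kinases downstream of MAPKs, 1 was called higher at 60 min, Rps6ka2, with a ratio of 1.79 (1.56 to 2.04). That call was lost with scaling by total counts, with or without Rn45s, and with a log2 limit of 1. At 120 min 2 were called higher, Rps6ka2 and Rps6ka3, and 2 lower, Mapkapk3 and Rps6ka5.

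Of the Sprouty and Spred genes with Errfi1, which encodes an inhibitor of the EGF receptor, 5 of 8 were tested and only Errfi1 was called at 60 min, with a ratio of 43.7 (41.7 to 45.9). Spred3 with a ratio of 1.76 and Spry2 with 0.913 were not called. Of 14 MAPK-responsive immediate early genes, 13 were called higher at 30 min (all genes 1.42%), with a median log2 ratio of 2.97 over the list. The number was 14 at 45 min (all genes 4.63%), with a median of 3.71. It was 13 at 60 min (4.23%), with 3.19, and 11 at 120 min (9.41%), with 2.09. The list was chosen with earlier results of these data known, so these counts are a description and not a test. Fosb reached 147-fold at 60 min (74.4 to 341) and Nr4a1 40.9-fold. Fos, the 1 gene not called at 60 min, went from a normalized count of 7734 at 0 min to 47988 at 45 min and back to 7127 at 60 min, and was called lower at 120 min (0.240). Pattern g3, that of Dusp1 and Dusp2, was held by 9 of the 14 immediate early genes and by 1.07% of all tested genes.

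**Figure D4:**
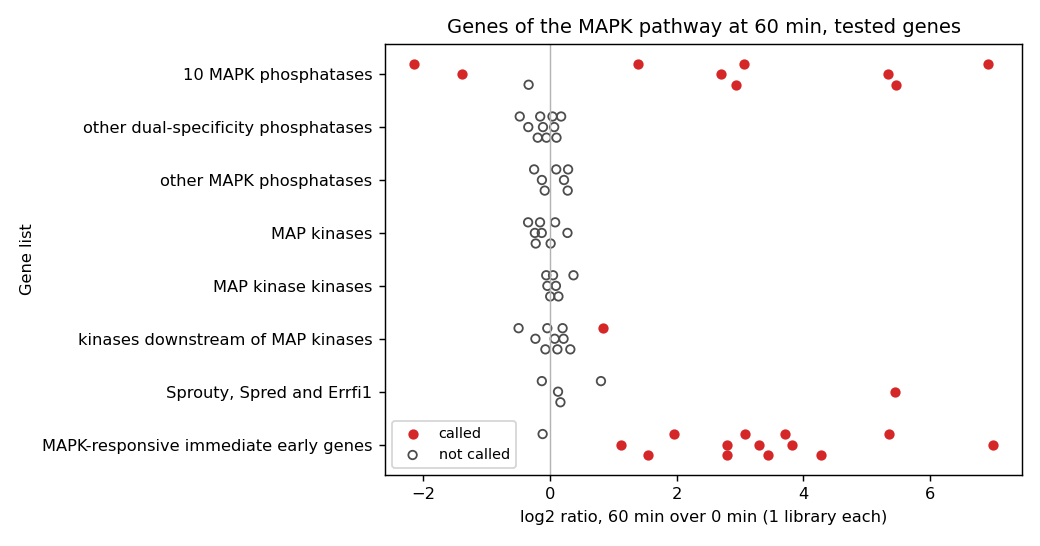
Log2 ratio of normalized counts at 60 min over 0 min for the tested genes of each pathway list (rows), 1 point per gene, filled where called and open where not; vertical offsets only separate points. Points of the 10 MAPK phosphatases and the immediate early genes spread to ratios near 7 on the log2 scale, while those of the other dual-specificity phosphatases, MAP kinases and MAP kinase kinases lie within 0.5 of 0.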

How the data were processed

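RNA was collected from RAW264.7 macrophages at 0 min and at 15 to 120 min of LPS treatment, with 1 library per time point. The authors depleted ribosomal RNA and sequenced 58-base reads. They mapped the reads with Bowtie to RefSeq transcripts (mm10), kept the best alignments with at most 2 mismatches, discarded reads that matched several genes and deposited whole-number read counts per gene. The submitters' processing notes name CASAVA 1.8.2 and DESeq 1.10.1. The 8 libraries held 100250892 to 159077286 counts.

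From the deposited counts, size factors, a dispersion trend over all libraries and exact negative binomial tests of 2 libraries were computed. This was done in Python 3.11.15 (numpy 2.4.6, scipy 1.17.1) after the study's method. The code was also run on simulated counts with a smaller dispersion than the fitted one. That run does not show how the calls behave at the dispersion of these data. Genes whose normalized counts averaged 10 or more were tested. Pattern groups came from all 28 pairs of libraries. Ratios have exact conditional binomial intervals, and rpkm values have exact Poisson intervals, with length as the number of 58-mers unique to a gene in GENCODE vM21 transcripts matched by RefSeq accession.

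Members and lists were chosen with earlier results of these data known. Named genes were the members, the 3 genes most like each member and, per list, the 2 largest rises and the largest fall at 60 min. Other genes were named where a count was 5 or fewer, chosen after their values were seen. Some genes that this rule names are not reported here. Alternatives covered scaling (total counts, total counts without Rn45s, edgeR 4.0.16 TMM), dispersion (edgeR, DESeq2 1.42.0), adjusted p-values, the fold limit, the filter, the pseudocount and each library left out.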

Additional observations from a re-analysis of the deposited data

How the results depend on the processing

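No called ratio of a phosphatase to 0 min at 30, 45, 60 or 120 min changed sign under the alternatives tried. That outcome was fixed beforehand and is no test of the processing. The log2 limit for a call was larger than any shift that the scalings gave at these times. The alternatives for dispersion, p-value adjustment, fold limit and filter left the ratios as they were. The balance of higher and lower calls over all tested genes is a different measure. It turned at 45, 75, 90 and 120 min with scaling by total counts. With Benjamini-Hochberg adjusted p-values 0 phosphatases were called higher at 15 min, in place of 2. The count called lower at 45 min was 0 in place of 1 with the edgeR dispersion trend, with adjusted p-values and with a log2 limit of 1, the gene being Dusp6. The number without any pattern (g0) was 1 in place of 0 with the edgeR dispersion trend, with adjusted p-values and without the 120 min library, the gene being Dusp14. Without the 60 min library 3 phosphatases had pattern g1 in place of 5. Pattern g3 was held by 1 in place of 2 without the 45 min library and also with the 0, 30, 60 and 120 min libraries alone. The latter alternative was chosen after seeing the data. It leaves out 45 min, the maximum of Dusp1, and holds the libraries with the lower share of Rn45s. Leaving out the 15, 30, 75 or 90 min library kept each count of patterns within 1.5 times. The numbers of phosphatases called did not move by more than 1.5 times with total counts, total counts without Rn45s, edgeR TMM factors, the DESeq2 trend or no filter. The share of higher calls among all tested genes called at 120 min was 52.3%, against 33.7% with total counts, 33.2% with total counts without Rn45s and 50.1% with TMM factors. At 75 min it was 57.6%, against 24.6% and 42.3% with the first pair, at 90 min 56.1%, against 31.1% and 40.3%, and at 45 min 71.5%, against 48.9% with total counts. Depth limited Dusp8 at 0 and 15 min and Dusp14, the genes with the fewest counts. No paired analysis was possible because each time point had 1 library.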
